A study of Rattus norvegicus with 12 samples.

Results

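Glutathione S-transferases, UDP-glucuronosyltransferases and sulfotransferases are major families of conjugating enzymes, and their transcripts were followed in the kidney cortex of rats that differed in the xanthine dehydrogenase gene Xdh. Members were all genes of the count table whose symbols name a cytosolic, kappa or microsomal glutathione transferase, a glucuronosyltransferase of the Ugt series or a sulfotransferase of the Sult series. The rule gave 40 of 32623 genes: 19 cytosolic and kappa glutathione transferases (Gst), 3 microsomal ones (Mgst), 6 glucuronosyltransferases (Ugt) and 12 sulfotransferases (Sult). All 40 were listed as protein coding, and 32 had enough counts to be tested.

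The rats were males aged 6 weeks of the strain labelled SS-Xdhem1Mcwi, in which SS stands for the Dahl salt-sensitive rat and the remainder for an edited Xdh allele. Wild-type littermates (WT) carried no mutated Xdh allele, heterozygotes (HET) carried 1 and homozygotes (HOMO) carried both, with no drug treatment labelled. The 3 groups shared that strain, tissue, age and sex. Each had 4 mRNA libraries, numbered 1 to 4 in WT and HOMO and 1, 2, 4 and 5 in HET. The labels do not say that each library came from its own animal, so a p-value here speaks only for the variation among these libraries, some of which may be technical.

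Library totals ran from 18995464 to 37023629 counts. The targeted gene, Xdh, lay at 212 to 380 CPM in WT, 140 to 197 CPM in HET and 57.6 to 61.7 CPM in HOMO replicates 1, 2 and 4. In the library labelled HOMO replicate 3 it was at 230 CPM, inside the range of WT. The label states a genotype, not an Xdh level. The tubular transcription factor gene Hnf4a was at 108 CPM in that library, 101 to 155 CPM in the other HOMO libraries and 975 to 1209 CPM in WT. Mitochondrial genes made up 6.35% of its counts, against 5.97% to 6.75% in the other HOMO libraries and 14.4% to 17.0% in WT. Why its Xdh level differed was not tested. CPM are counts relative to the library total. Levels in CPM are adjusted by TMM, a correction for differences in RNA composition. The CPM limits of the count filters are not adjusted. A ± beside a level or share is the SD over 4 libraries, and beside a log2 fold change it is the standard error. Without the library labelled HOMO replicate 3, 3 members were called higher and 22 lower in HOMO than in WT. These were the same numbers as with it, with Gsta6 added to the calls and Gsta3 lost. Of all 16044 genes tested in that setting, 5822 were called higher and 5517 lower.

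Conjugation makes reactive or fat-soluble molecules easier to excrete. Glutathione transferases join the tripeptide glutathione to electrophiles and, in several classes, reduce organic hydroperoxides. Glucuronosyltransferases move glucuronic acid from its UDP carrier onto phenols, steroids, bile acids and drugs in the endoplasmic reticulum. Sulfotransferases of the Sult series use the sulfate donor PAPS in the cytosol on phenols, hormones and steroids. In the kidney these enzymes are known mainly from the tubular epithelium, which also takes up organic anions, breaks glutathione conjugates down to mercapturates and exports the products into urine.

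Transcripts of all 4 families had a lower mean summed level in HOMO than in WT. Summed over its members, the Gst level was 2142 ± 246 CPM (SD, n = 4) in WT, 2204 ± 201 CPM in HET and 936 ± 99.9 CPM in HOMO. For the Mgst genes the sums were 406 ± 20.3, 434 ± 28.9 and 198 ± 57.9 CPM, and for the Ugt genes 506 ± 34.1, 509 ± 107 and 158 ± 22.7 CPM. For the Sult genes the sums went from 1419 ± 81.7 CPM in WT and 1365 ± 164 CPM in HET to 132 ± 18.1 CPM in HOMO. In bulk tissue, fewer cells of a type and less RNA per cell cannot be told apart.

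**Figure D1:**
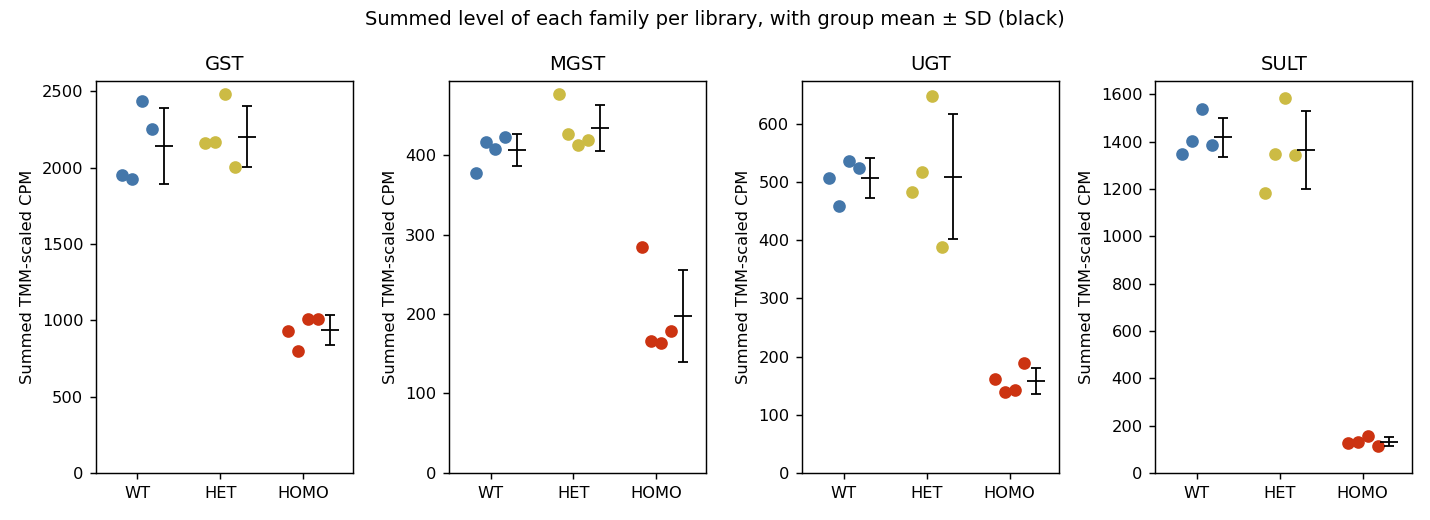
Summed level of each enzyme family per library, in TMM-scaled CPM, for WT, HET and HOMO (4 libraries each), with a point per library and black marks for the group mean ± SD. WT and HET libraries overlap in each family, while the HOMO mean of the Sult genes is 132 CPM against 1419 CPM in WT.

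Of the 32 members tested, 3 rose and 22 fell in HOMO against WT, and 7 were not called (edgeR quasi-likelihood test with Benjamini-Hochberg adjustment over 15856 genes, level 0.05). Over all genes tested 71.7% were called, 37.0% higher and 34.7% lower, against 9.38% higher and 68.8% lower among the members. By more than 2-fold 22 members were called, against 36.6% of all genes, and in 22 members (68.8%) the WT and HOMO ranges were apart, against 66.4% of all genes. The median log2 fold change was -1.53 over the tested members and 0.038 over all genes. With library size alone as the scale 8 members were higher and 20 lower, the all-gene median was 0.65 and 80.1% of all called genes were higher in place of 51.6%.

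The families differed in their counts. Among Gst genes 2 rose, 12 fell and 3 were not called, at a median of -1.49. Among Mgst genes 1 rose, 1 fell and 1 was not called. All 4 tested Ugt genes fell, at a median of -3.32, and 5 Sult genes fell with 3 not called, at a median of -2.56. With library size alone these medians were -0.88, -2.73 and -1.95 for Gst, Ugt and Sult genes, and with at least 1 CPM in 4 libraries, where Ugt2b is not tested, the Ugt median was -2.15. The call rate of the families was not compared by a test. A gene entered the test with at least 0.322 CPM, here not adjusted by TMM, in 4 libraries and a minimum total. Mgst2 reached that level in 0 WT, 1 HET and 4 HOMO libraries, Ugt2b in 4 WT, 2 HET and 0 HOMO libraries, and Sult1c3 in 3 WT, 4 HET and 0 HOMO libraries. These 3 passed through the groups where they were high, and their calls are not support for a direction. Of the 29 members above that level in every library, 2 rose, 20 fell and 7 were not called.

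**Figure D2:**
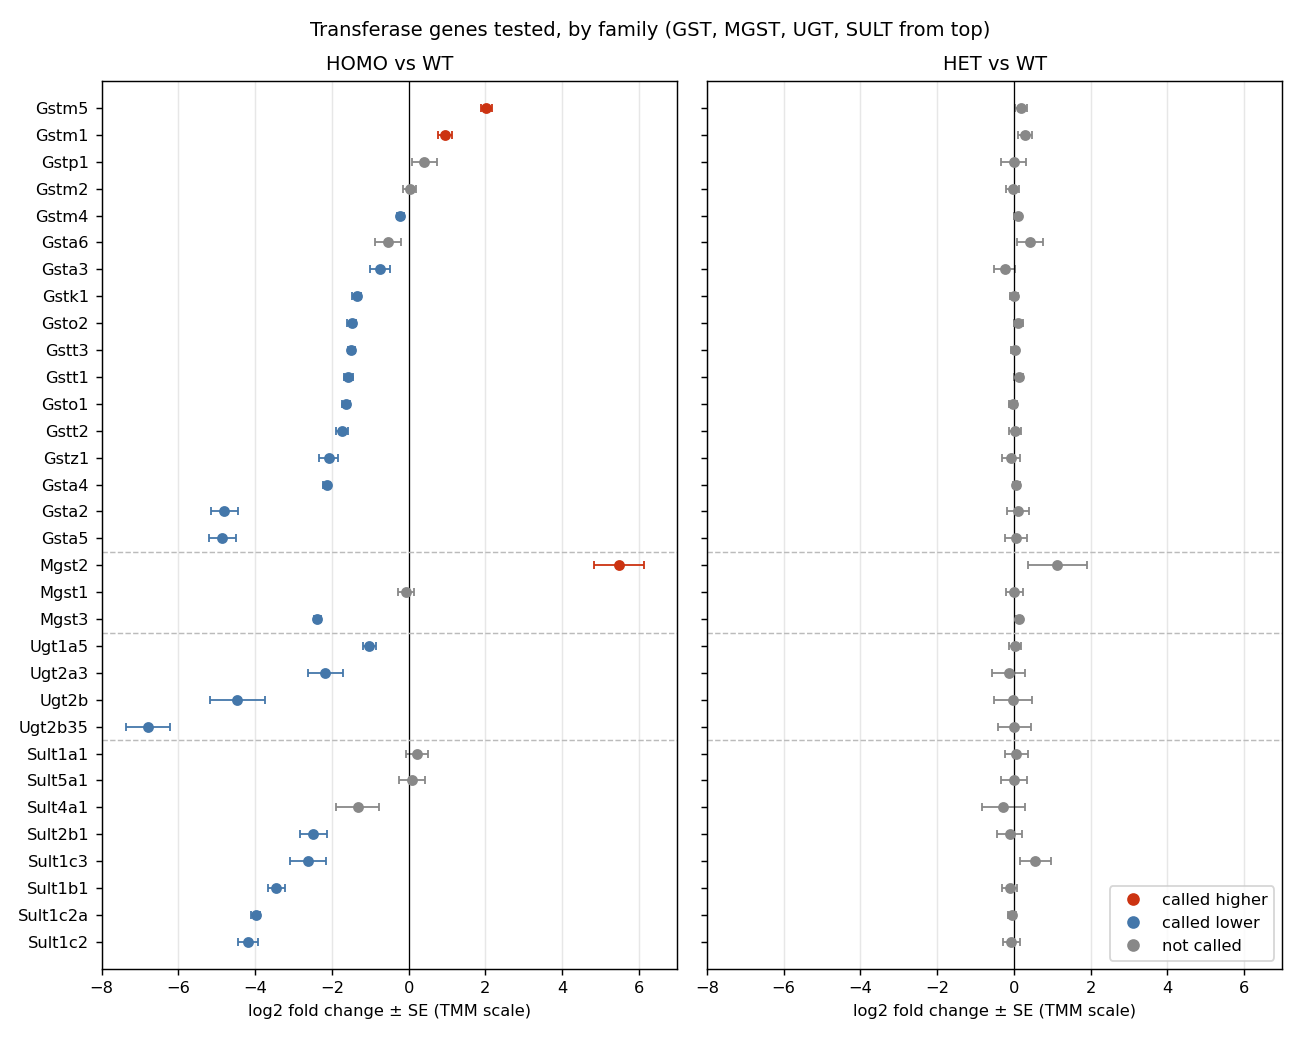
Log2 fold change (TMM scale) of each tested member, with bars of 1 standard error, for HOMO against WT on the left and HET against WT on the right, grouped by family and coloured by whether edgeR called it higher, lower or not. In HOMO against WT values run from -6.80 ± 0.57 for Ugt2b35 to 5.48 ± 0.65 for Mgst2, while 0 members are called in HET against WT.

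Markers of kidney cortex cell types were present in every group and differed between HOMO and the others. In HOMO against WT 37.0% of all genes tested were called higher and 34.7% lower. All 20 proximal tubule markers fell, their summed level lying at 39509 to 44896 CPM in WT, 41938 to 47422 CPM in HET and 3367 to 3874 CPM in HOMO, and tubular injury markers rose in 10 of 10, at 763 to 1144 CPM in WT and 13849 to 17686 CPM in HOMO. Macrophage markers rose in 10 of 10 (246 to 381 CPM in WT, 2035 to 2976 CPM in HOMO), lymphocyte markers in 9 of 9 tested (WT 13.6 to 26 CPM, HOMO 91.6 to 125 CPM) and fibroblast markers in 9 of 9 tested (619 to 907 CPM in WT, 3672 to 7263 CPM in HOMO). Most of the lymphocyte sum was Cd4, at a mean of 15.8 CPM in WT and 84.4 CPM in HOMO. Thick limb and distal tubule markers fell in 6 of 7 tested, collecting duct markers in 7 of 8, and endothelial markers rose in 1 and fell in 6 of 7 tested. With library size alone these became 4 of 7, 4 of 8, and 1 rise with 1 fall of 7. Of 5 tested liver markers 0 rose and 2 fell. Among the markers 0 genes in the table were at 0 counts in WT or in HOMO. Their part in the results for the conjugating enzymes was not tested.

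The alpha class, known for reducing lipid hydroperoxides and conjugating their aldehyde products, fell in 4 of 5 genes, with 1 not called. Gsta5, whose enzyme in the rat conjugates aflatoxin epoxide, was measured at 325, 316, 460.5 and 444 CPM in WT, 407, 379.6, 437 and 391 CPM in HET and 13.5, 11.8, 22.1 and 5.79 CPM in HOMO. Its highest HOMO library lay far under its lowest WT library, and the log2 fold change was -4.85 ± 0.34 (edgeR adjusted p = 1.40e-07). Gsta2, another alpha gene of the same chromosome region, was at 58, 55.7, 75 and 76.9 CPM in WT, 70.6, 74.9, 70.3 and 69.6 CPM in HET and 2.31, 1.54, 4.37 and 1.02 CPM in HOMO. Again no HOMO library reached the other groups, and the log2 fold change was -4.80 ± 0.35 (edgeR adjusted p = 1.92e-07). Reads of Gsta2 and Gsta5, which are close relatives, may have been split between them by the counting, so their separate values are uncertain.

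Gsta4, specialised for the lipid aldehyde 4-hydroxynonenal, was at 143, 149, 187 and 162 CPM in WT, 171, 164, 178 and 159 CPM in HET and 38, 36.3, 38.3 and 33.1 CPM in HOMO. The 4 HOMO libraries were close together and all below WT, with a log2 fold change estimated at -2.14 ± 0.090 (edgeR adjusted p = 5.34e-10). Gsta3, whose human counterpart isomerises steroids, fell, with a log2 fold change estimated at -0.75 ± 0.27 (edgeR adjusted p = 0.0258). It went from 11.3 to 23 CPM in WT to 7.93 to 16 CPM in HOMO. The groups overlapped, and the call was lost when WT replicate 3 or 4, or any of HOMO replicates 2 to 4, was left out, with values of -0.69 to -0.60 (edgeR adjusted p = 0.0647 to 0.0806), and with library size alone, at -0.14 (edgeR adjusted p = 0.665). Gsta6 was not called, at -0.54 ± 0.34 (edgeR adjusted p = 0.174), and without the library labelled HOMO replicate 3 it was called lower, at -1.06 (edgeR adjusted p = 8.45e-04). That library held 50.1 CPM of Gsta6 against 18.5 to 18.8 CPM in the other 3 HOMO libraries.

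The mu class, which conjugates epoxides and quinones, went several ways: 2 genes rose, 1 fell and 1 was not called. Gstm5 was at 5.91, 4.23, 6.31 and 4.53 CPM in WT, 6.14, 6.26, 6.02 and 5.33 CPM in HET and 22.9, 18.2, 19.1 and 25.3 CPM in HOMO. Every HOMO library lay above every WT and HET library, with a log2 fold change estimated at 2.02 ± 0.15 (edgeR adjusted p = 7.82e-08). Gstm1, in the rat a major mu transferase of liver, was at 41.9, 67.4, 40.5 and 41.1 CPM in WT, 64, 58.4, 49.6 and 62 CPM in HET and 87.6, 67.1, 106 and 107 CPM in HOMO. Its WT and HOMO libraries overlapped through WT replicate 2, and it rose, with a log2 fold change estimated at 0.95 ± 0.19 (edgeR adjusted p = 5.60e-04). Gstm2 was not called, at 0.029 ± 0.17 (edgeR adjusted p = 0.889), though it was called higher with library size alone, at 0.64 (edgeR adjusted p = 0.00225). Gstm4 fell slightly, at -0.22 ± 0.093 (edgeR adjusted p = 0.044), but was at 0.39 and called higher with library size alone (edgeR adjusted p = 0.00181). Its call was also lost without a filter, with DESeq2, with the stricter 1 CPM filter, and when replicate 1, 2 or 4 of WT or of HOMO was left out (values -0.24 to -0.18).

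The pi gene among the members, Gstp1, is a classic marker of preneoplastic foci in rat liver. It was at 170.01, 137, 249 and 202 CPM in WT, 146, 128, 355 and 125 CPM in HET and 232, 193, 259 and 324 CPM in HOMO. The groups overlapped, HET replicate 4 stood above every other HET library, and the log2 fold change of HOMO against WT was 0.41 ± 0.33 (edgeR adjusted p = 0.289), not called (with library size alone 1.02, edgeR adjusted p = 0.0175). Gstp1 had the highest level of all members per kilobase of listed length in HOMO, 328 ± 71.6 CPM per kilobase, against 246 ± 62.3 in WT, where it was the 5th highest member.

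The theta, omega, zeta and kappa classes all fell. Gstt3, the highest of the theta genes per kilobase, was at 467, 475, 535 and 523 CPM in WT, 488, 505, 603 and 434 CPM in HET and 167, 174, 187 and 184 CPM in HOMO. The HOMO libraries did not overlap WT, with a log2 fold change estimated at -1.49 ± 0.10 (edgeR adjusted p = 2.86e-08). Gstt1 and Gstt2, which act on small halogenated compounds and sulfate esters, were at -1.58 ± 0.12 (edgeR adjusted p = 9.41e-08) and -1.73 ± 0.16 (edgeR adjusted p = 6.78e-07). Gsto1, an omega enzyme with dehydroascorbate reductase activity, was at 205, 198, 268 and 237 CPM in WT, 243, 232, 193 and 222 CPM in HET and 79.2, 70.8, 74.5 and 70.5 CPM in HOMO. It fell, with a log2 fold change estimated at -1.62 ± 0.10 (edgeR adjusted p = 2.12e-08), and so did Gsto2, at -1.49 ± 0.13 (edgeR adjusted p = 2.45e-07). The listed starts of these omega genes lie 2 bases apart, so their reads may be shared and their separate values are uncertain.

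Gstz1, the maleylacetoacetate isomerase of tyrosine breakdown, was at 119.7, 107, 133 and 127 CPM in WT, 117, 122, 127 and 95.5 CPM in HET and 48.5, 22.5, 22.1 and 21.5 CPM in HOMO. HOMO replicate 1 was above the other 3 HOMO libraries and still below WT, and the log2 fold change was -2.08 ± 0.24 (edgeR adjusted p = 8.72e-06). Gstk1, the transferase of mitochondria and peroxisomes, fell, with a log2 fold change estimated at -1.35 ± 0.12 (edgeR adjusted p = 2.83e-07). It went from 39.9 to 50.8 CPM in WT to 16.2 to 21.9 CPM in HOMO.

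The make-up of the cytosolic and kappa transferases differed between HOMO and the other groups, as shares of their summed level per kilobase. The alpha class held 36.4 ± 1.37% of that level in WT, 37.6 ± 2.52% in HET and 8.98 ± 2.13% in HOMO. The pi gene held 13.7 ± 1.8% in WT and 39.6 ± 4.39% in HOMO, and the mu class 6.29 ± 1.48% in WT and 19.8 ± 1.47% in HOMO. Theta genes went from 23.7 ± 1.37% to 17.7 ± 2.56%, omega genes from 13.4 ± 0.319% to 9.68 ± 1.27%, zeta from 3.67 ± 0.223% to 1.88 ± 0.9% and kappa from 2.75 ± 0.147% to 2.34 ± 0.263%. A larger share does not mean a higher level: the summed level of the mu class was 109 ± 14.7 CPM per kilobase in WT and 164 ± 30.4 in HOMO, while that of the alpha class was 648 ± 105 and 73.1 ± 17.7. When counts were not divided by length, HOMO shares were 26.7% for pi, 24.7% for theta, 23.9% for mu and 9.52% for alpha. The WT shares on that scale were 8.75%, 31.1%, 8.01% and 31.1% in the same order.

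**Figure D3:**
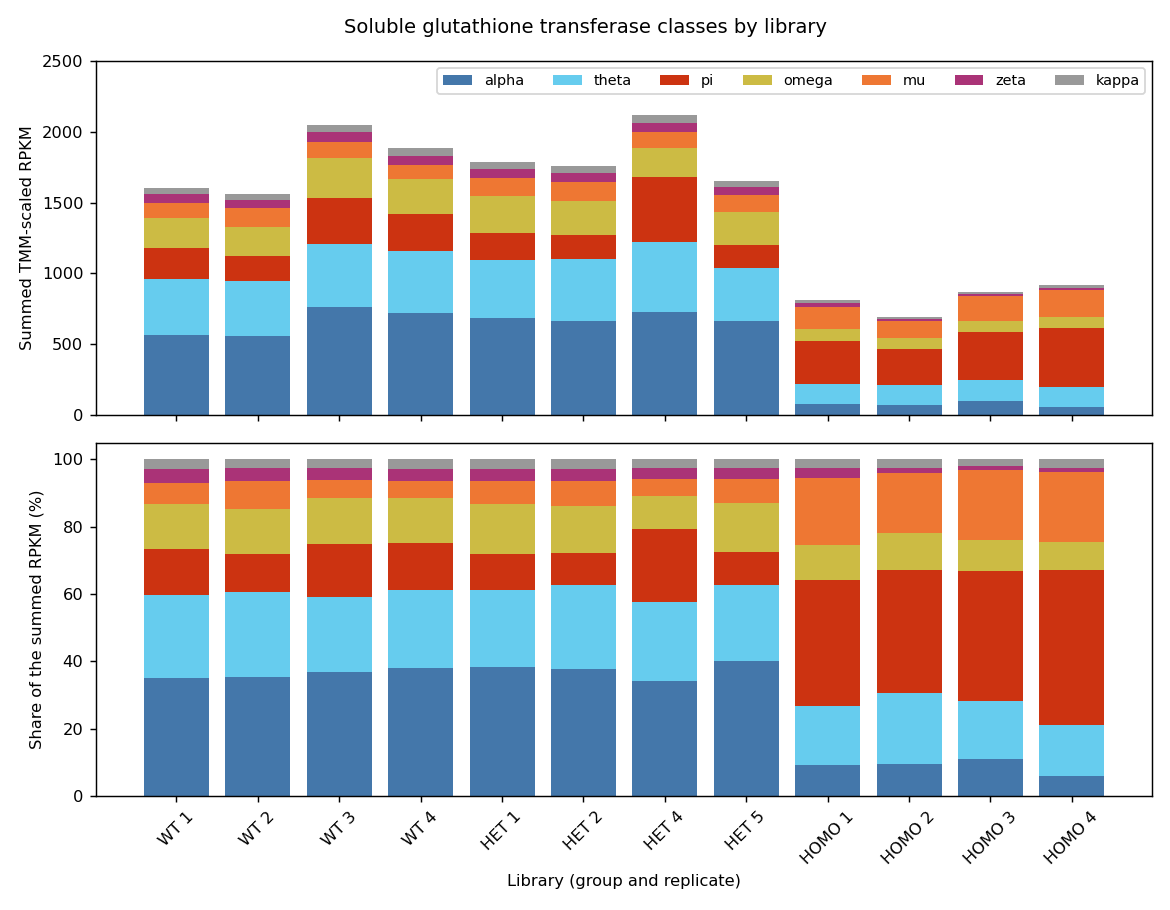
Cytosolic and kappa glutathione transferase classes in every library of WT, HET and HOMO, as stacked bars of the summed level (TMM-scaled RPKM, that is CPM per kilobase) above and of the share of that sum in percent below. In each HOMO library the pi and mu classes take a larger share and the alpha class a smaller one than in the WT libraries.

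Promoter stretches of 6 members are shown: Gstm5 and Gstm1 rose, Gstp1 was the highest in HOMO, and Gsta5, Sult1c2a and Ugt2b35 were among the highest of their families in WT and fell. Each is the 250 bases before the transcription start in RefSeq (build GRCr8), read 5′ to 3′ on the gene's own strand, with capitals marking matches to an antioxidant response element (TGACNNNGC), an AP-1 site (TGANTCA) or a TATA box (TATAAA) on either strand. Sequences without capitals hold none of these letters.
Gstm5 (GRCr8 chr2:198219519-198219768, strand +): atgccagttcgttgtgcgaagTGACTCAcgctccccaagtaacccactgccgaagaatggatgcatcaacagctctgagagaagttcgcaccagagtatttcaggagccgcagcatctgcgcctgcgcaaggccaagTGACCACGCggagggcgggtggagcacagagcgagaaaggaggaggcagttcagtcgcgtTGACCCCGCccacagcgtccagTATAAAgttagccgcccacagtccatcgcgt
Gstm1 (GRCr8 chr2:198343384-198343633, strand -): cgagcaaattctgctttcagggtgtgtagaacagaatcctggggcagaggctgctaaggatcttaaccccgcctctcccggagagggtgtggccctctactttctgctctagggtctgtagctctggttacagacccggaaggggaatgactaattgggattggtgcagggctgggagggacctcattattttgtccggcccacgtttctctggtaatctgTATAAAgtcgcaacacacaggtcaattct
Gstp1 (GRCr8 chr1:210769706-210769955, strand -): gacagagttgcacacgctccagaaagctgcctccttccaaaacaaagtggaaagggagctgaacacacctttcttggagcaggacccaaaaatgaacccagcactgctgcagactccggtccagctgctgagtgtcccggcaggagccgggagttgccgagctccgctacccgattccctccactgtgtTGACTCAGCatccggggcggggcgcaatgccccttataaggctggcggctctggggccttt
Gsta5 (GRCr8 chr8:87988104-87988353, strand +): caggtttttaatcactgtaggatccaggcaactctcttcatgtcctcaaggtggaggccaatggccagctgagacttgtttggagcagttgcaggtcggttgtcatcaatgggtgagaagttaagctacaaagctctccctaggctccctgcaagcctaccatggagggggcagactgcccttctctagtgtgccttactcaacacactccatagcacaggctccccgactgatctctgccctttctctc
Sult1c2a (GRCr8 chr9:7103203-7103452, strand -): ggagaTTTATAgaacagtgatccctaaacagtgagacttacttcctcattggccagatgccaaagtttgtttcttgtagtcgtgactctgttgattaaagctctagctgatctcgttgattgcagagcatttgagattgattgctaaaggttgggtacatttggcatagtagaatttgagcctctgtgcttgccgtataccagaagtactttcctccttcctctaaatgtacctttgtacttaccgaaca
Ugt2b35 (GRCr8 chr14:21208191-21208440, strand +): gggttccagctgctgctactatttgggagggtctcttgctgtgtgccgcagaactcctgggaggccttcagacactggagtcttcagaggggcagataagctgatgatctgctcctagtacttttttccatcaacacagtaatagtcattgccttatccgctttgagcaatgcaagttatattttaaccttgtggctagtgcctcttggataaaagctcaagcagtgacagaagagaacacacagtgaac
In Gstp1 the antioxidant and AP-1 matches overlap, 61 to 53 and 61 to 55 bases before the start. Gstm5 held 2 antioxidant matches, 113 to 105 and 53 to 45 bases before the start, 1 AP-1 match and 1 TATA box. The TATA letters of Gstm1 lie 29 to 24 bases before its start. Those of Sult1c2a are on the opposite strand, 245 to 240 bases before its start.

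RefSeq promoters matched 33 of the 40 members, 2 of them with 2 starts, and motifs were searched on both strands. Mgst2, the member with the highest estimate in HOMO against WT, had no matched promoter, nor had Gstt1, Gstt2, Sult4a1, Ugt1a5, Ugt2b17 and Ugt3a2. The antioxidant element was found in 4 members, Gsta3, Gstm5, Gstp1 and Gstz1, or 12.1% of those matched, against 10.1% of all 33469 promoters. Of these, Gsta3 and Gstz1 fell in HOMO against WT, Gstm5 rose and Gstp1 was not called. Bases further than 250 before the start were not searched, so elements there would be missed. AP-1 letters were found in 3 members, Gstm5, Gstp1 and Mgst1 (9.09%, against 6.34%). The TATAAA letters, on either strand and anywhere in the 250 bases, were in 7 (21.2%, against 12.9%). An HNF4 site written CAAAGTCCA was in 0 members and 0.338% of all promoters. These motifs were chosen with the members' values known, and a match of letters is a description of the sequence.

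The microsomal transferases, membrane enzymes of the endoplasmic reticulum and mitochondria, gave 1 rise, 1 fall and 1 gene not called. Mgst3, a glutathione peroxidase of that family, was at 232, 291, 243 and 263 CPM in WT, 313, 283, 249 and 288 CPM in HET and 49.4, 49.2, 47.8 and 51.6 CPM in HOMO. HOMO libraries were all below WT, with a log2 fold change estimated at -2.38 ± 0.090 (edgeR adjusted p = 2.66e-10). Mgst1, which protects membranes from lipid peroxides, was at 145, 125, 166 and 159.8 CPM in WT, 163, 144, 165 and 131 CPM in HET and 227, 112, 109 and 119.8 CPM in HOMO. The groups overlapped, HOMO replicate 1 was above the other HOMO libraries, and the log2 fold change was -0.068 ± 0.21 (edgeR adjusted p = 0.783), not called. It was called lower without HOMO replicate 1 (-0.39, edgeR adjusted p = 0.007) and called higher with library size alone (0.54, edgeR adjusted p = 0.0359).

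Mgst2, which can form leukotriene C4, was barely present outside HOMO, at 0.127, 0.0846, 0.151 and 0.189 CPM in WT, 0.841, 0.15, 0 and 0.123 CPM in HET and 7.41, 4.79, 6.65 and 6.88 CPM in HOMO. All 4 HOMO libraries were above every other library, and the log2 fold change was 5.48 ± 0.65 (edgeR adjusted p = 8.49e-06), the highest estimate among the 32 tested members. Its counts summed to 16 in WT, 33 in HET and 1084 in HOMO, so the size of the fold rests on few WT reads. Mgst2 passed the filter only through the HOMO libraries, where it was high, so its call is not support for a direction. Of the summed microsomal level per kilobase, Mgst3 held 73.1 ± 3.82% in WT and 34.5 ± 6.88% in HOMO, Mgst1 26.9 ± 3.81% and 58.7 ± 7.7%, and Mgst2 0.0615 ± 0.019% and 6.88 ± 1.3%.

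Glucuronosyltransferases fell in each gene tested, but Ugt2b passed the filter only through WT and HET libraries, so its call is not support for a direction. Ugt2b35, of the Ugt2b group known for steroids and bile acids, was at 169.98, 139, 160.1 and 219 CPM in WT, 199, 173, 192 and 128 CPM in HET and 3.28, 1.74, 0.3 and 0.711 CPM in HOMO. Every HOMO library was below every WT library, with a log2 fold change estimated at -6.80 ± 0.57 (edgeR adjusted p = 1.25e-06), the lowest estimate among the 32 tested members, and -7.57 without HOMO replicate 1. The row named Ugt1a5, with a listed length of 9345 bases, belongs to a locus whose alternative starts share their last exons, so reads of the different Ugt1a forms cannot be told apart in it. It was at 300.5, 279, 355 and 279.8 CPM in WT, 261, 321, 413 and 237 CPM in HET and 149, 133, 139.5 and 177 CPM in HOMO, which separated HOMO from WT at a log2 fold change estimated at -1.02 ± 0.16 (edgeR adjusted p = 7.84e-05).

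Ugt2a3, which glucuronidates bile acids in humans, was at 36.4, 39.2, 20.6 and 24.3 CPM in WT, 21.3, 22.9, 42.2 and 23 CPM in HET and 10.2, 4.49, 2.1 and 10.1 CPM in HOMO. WT, HET and HOMO libraries of this gene spread widely, and the HOMO ones were the lowest, with a log2 fold change estimated at -2.17 ± 0.46 (edgeR adjusted p = 0.00141). Ugt2b was at 0.476, 0.592, 0.378 and 0.472 CPM in WT, 0.779, 0.3, 0.611 and 0.123 CPM in HET and 0.0206, 0.0504, 0 and 0 CPM in HOMO. It had 54 counts over the WT libraries and 3 over the HOMO libraries, a WT level 26.6 times that of HOMO (95% counting interval 8.63 to 133), and the fitted log2 fold change was -4.46 ± 0.71 (edgeR adjusted p = 8.85e-05), or -5.35 without HOMO replicate 2. Ugt2b35 held 69.9 ± 4.92% of the summed Ugt level per kilobase in WT and 4.34 ± 3.65% in HOMO, and Ugt1a5 25.6 ± 4.27% and 89.1 ± 6.1%.

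Among sulfotransferases the 3 Sult1c genes, Sult1b1 and Sult2b1 fell, and the phenol-sulfating Sult1a1, Sult4a1 and Sult5a1 were not called. Of those that fell, Sult1c3 passed the filter only through WT and HET libraries, so its call is not support for a direction. Sult1c2a had the highest mean level of all members per kilobase in WT, 455 ± 22.1 CPM per kilobase, in a range shared with Mgst3. It was at 1166, 1257, 1279.9 and 1169 CPM in WT, 1022, 1135, 1368 and 1174 CPM in HET and 70.6, 85.3, 82.4 and 69.2 CPM in HOMO. No HOMO library came near WT, and the log2 fold change was -3.99 ± 0.12 (edgeR adjusted p = 5.50e-11). Sult1c2, its close relative, with which reads may be shared, was at 12.4, 11.2, 16.6 and 15.1 CPM in WT, 11, 11.3, 19.7 and 11 CPM in HET and 0.661, 0.908, 0.541 and 0.983 CPM in HOMO. HET replicate 4 was above the other HET libraries, and HOMO fell, with a log2 fold change estimated at -4.18 ± 0.26 (edgeR adjusted p = 1.60e-08). Sult1b1, which sulfates thyroid hormones and phenols, was at 118, 86.7, 162 and 147 CPM in WT, 108, 138, 124 and 105 CPM in HET and 11.6, 13.5, 13.4 and 8.4 CPM in HOMO. The groups were well apart, with a log2 fold change estimated at -3.45 ± 0.21 (edgeR adjusted p = 2.40e-08).

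Sult2b1, a cholesterol and pregnenolone sulfotransferase, was at 15.4, 15.4, 16.6 and 17.5 CPM in WT, 9.97, 12.4, 21.5 and 16.5 CPM in HET and 2.11, 2.34, 5.39 and 1.52 CPM in HOMO. All HOMO libraries were below WT, at a log2 fold change estimated at -2.49 ± 0.35 (edgeR adjusted p = 4.13e-05). Sult1a1 was at 23.4, 23.6, 38.9 and 22.9 CPM in WT, 23, 38.8, 23.2 and 29 CPM in HET and 32.6, 17.9, 48.5 and 26.7 CPM in HOMO. Its groups overlapped, with a log2 fold change estimated at 0.21 ± 0.29 (edgeR adjusted p = 0.53) that was not called (with library size alone 0.83, edgeR adjusted p = 0.0205). Sult4a1, an orphan sulfotransferase known mainly from brain, was at 10.4, 6.13, 20.1 and 13.7 CPM in WT, 5.86, 6.3, 23.7 and 5.82 CPM in HET and 4.62, 8.55, 4.57 and 2.24 CPM in HOMO. It was not called at -1.33 ± 0.56 (edgeR adjusted p = 0.0523), but was called lower with DESeq2 (-1.33, adjusted p = 0.0384), with limma voom (adjusted p = 0.025) and with the 8 libraries alone (edgeR adjusted p = 0.0226), and without WT replicate 2, HET replicate 4 or HOMO replicate 2 (edgeR adjusted p = 0.0107 to 0.0328). Sult5a1 was not called, at 0.089 ± 0.34 (edgeR adjusted p = 0.823), and Sult1c3 was at -2.63 ± 0.47 (edgeR adjusted p = 2.46e-04) on few counts. Of the summed Sult level per kilobase, Sult1c2a held 76.5 ± 4.28% in WT and 41.9 ± 6.22% in HOMO, and Sult1a1 3.68 ± 0.762% and 36.1 ± 9.73%.

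**Figure D4:**
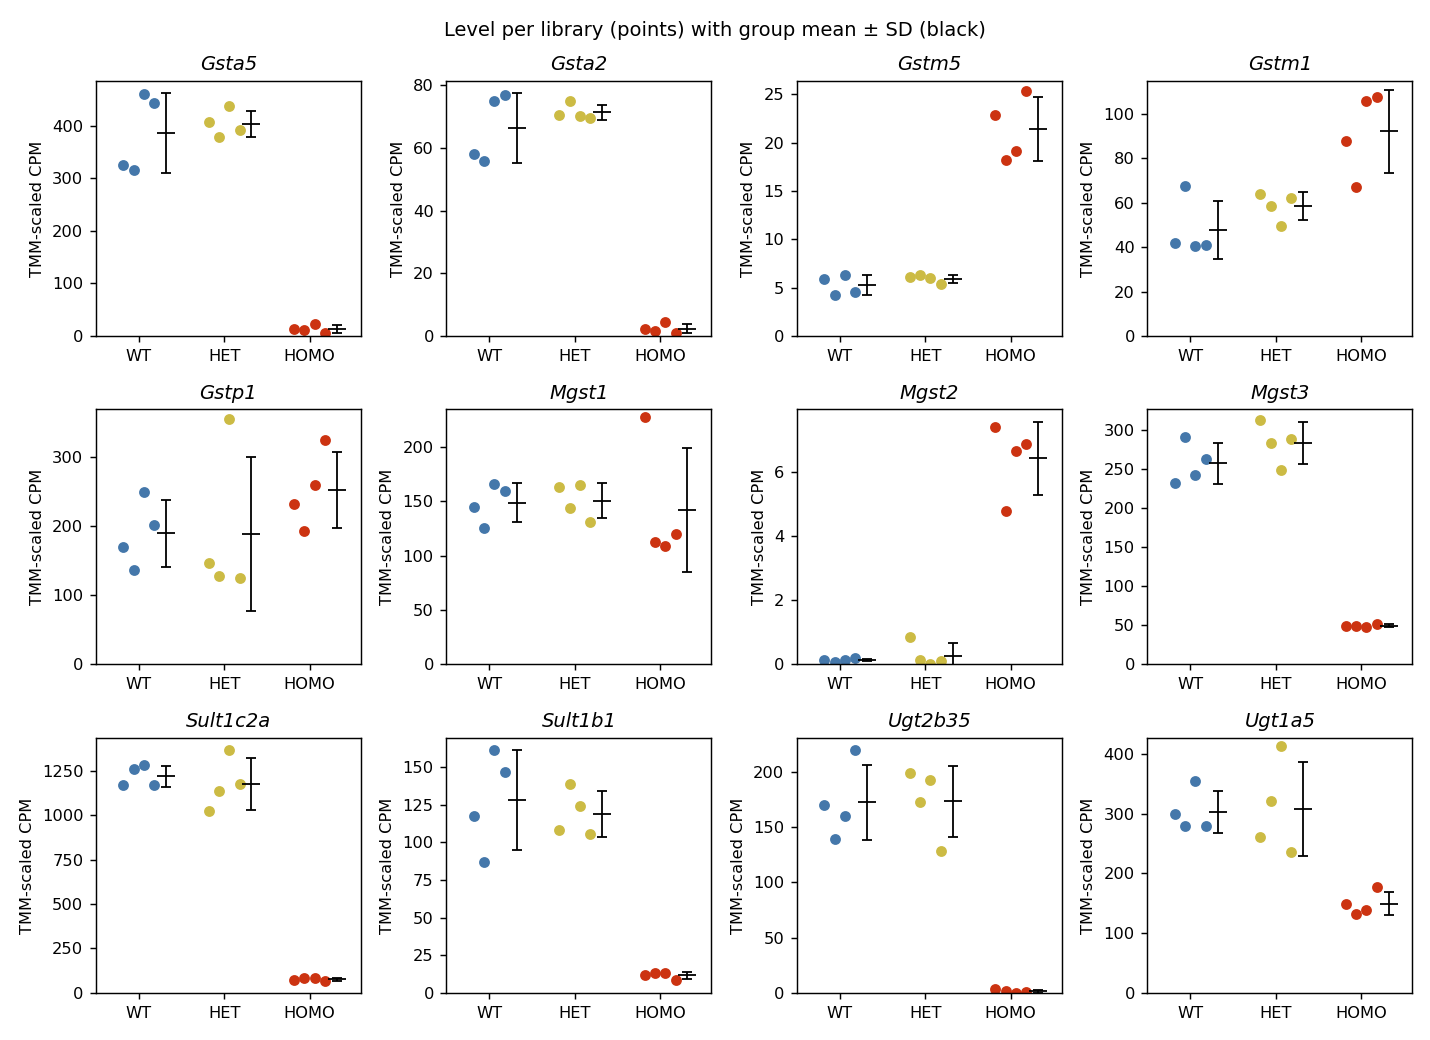
TMM-scaled CPM per library (points, linear axes from 0) of 12 members in WT, HET and HOMO, with black marks for the group mean ± SD of 4 libraries. Gsta5, Ugt2b35 and Sult1c2a separate HOMO from both other groups, while Gstp1 and Mgst1 overlap.

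Compared per kilobase, the highest WT members after Sult1c2a were Mgst3 (429 ± 43.4 CPM per kilobase), Gsta5 (373 ± 73.7) and Gstt3 (280.02 ± 19.1). In HOMO the order was Gstp1, Mgst1 (149 ± 60.1), Gstt3 (99.7 ± 5.04), Mgst3 (82.5 ± 2.66) and Gstm1 (82.4 ± 16.9). Over 100 CPM per kilobase lay 9 members in WT, 8 in HET and 2 in HOMO. The neighbours Mgst3 and Gstm1 in HOMO do not differ beyond their spread. Nor is the WT order of Sult1c2a, Mgst3 and Gsta5 settled. Their WT libraries ran from 436 to 478, 387 to 485 and 305 to 445 CPM per kilobase. In HET the mean of Mgst3 (472 CPM per kilobase) was above that of Sult1c2a (439).

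The 8 members that were not tested had few counts. Over the libraries of WT, HET and HOMO, Gstm6 had 11, 26 and 25 counts, Sult2a6, of the hydroxysteroid group, 11, 11 and 3, and Ugt2b17 5, 4 and 1. Sult1d1 had 6, 1 and 45 counts, 38 of them in HOMO replicate 1. Gstt4 had 3, 0 and 0 counts, the estrogen sulfotransferase Sult1e1 4, 0 and 2, and Sult6b1 2, 1 and 0. Ugt3a2 had 0 counts in every library, which allows up to 0.0265, 0.0306 and 0.0179 CPM over the WT, HET and HOMO groups (3 counts over a group, counting error only).

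In the gene table Gsta5 is ENSRNOG00000000201, Gstm5 ENSRNOG00000049743, Mgst2 ENSRNOG00000061857, Sult1c2a ENSRNOG00000042111 and Ugt2b35 ENSRNOG00000001980, and Gstp1, ENSRNOG00000018237, is listed on chromosome 1 from 219291679. Many members lie side by side on Rnor_6.0, as listed starts no more than 2 Mb apart. Calls given by region are for HOMO against WT, where 37.0% of all genes tested were called higher and 34.7% lower. Reads of Gsta2 and Gsta5, and of Sult1c2 and Sult1c2a, may be shared, so such neighbours may not be separate observations. On chromosome 2 the mu genes Gstm5, Gstm2, Gstm6, Gstm1 and Gstm4 start within 148.7 kb of each other, from 210685197 to 210833884, and of the 4 tested 2 rose, 1 fell and 1 was not called. On chromosome 8 Gsta4, Gsta5 and Gsta2 start between 85497557 and 85640055, and all 3 fell. A chromosome 14 group starting between 22072024 and 22724070 holds Sult1e1, Sult1d1, Sult1b1, Ugt2a3, Ugt2b, Ugt2b35 and Ugt2b17, and of its 4 tested genes Sult1b1, Ugt2a3 and Ugt2b35 fell, as did Ugt2b, which passed the filter only through the groups where it was high. Sult1c2a and Sult1c2 on chromosome 9 (starts from 4152589), with Sult1c3 (4930818), which also passed only through WT and HET, and Gstt2, Gstt1 and Gstt3 on chromosome 20 (13760810 to 13817795) fell as well. Gsta3 and Gsta6, on chromosome 9 from 27402381 to 27475273, gave 1 fall and 1 gene not called.

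The comparison of HET with WT gave 0 called members, and 0% of all 15856 genes was called by edgeR (318 genes and 0 members had an unadjusted p under 0.05, and DESeq2 called 1 gene and 0 members, limma voom 0). Over the 32 tested members the HET mean level was 82.7% to 202% of the WT mean, with 29 between 80% and 125%, and 26 had a log2 fold change of less than 0.2 in size. Mgst2, at 202%, had a log2 fold change estimated at 1.13 ± 0.77 (edgeR adjusted p = 1) and 0.841 CPM in HET replicate 1 against 0 to 0.15 CPM in the other HET libraries. The HET and WT ranges were apart in 1.62% of all genes and in 0 members. A call that was not made does not show equal levels: the standard error was 0.086 for Mgst3, 0.29 for Gsta5 and 0.43 for Ugt2b35, on the log2 scale.

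HOMO against HET, which shares the HOMO libraries with the comparison against WT, gave 3 members higher and 22 lower, where 70.6% of all genes were called, 36.2% higher and 34.5% lower. In 24 members the groups did not overlap, against 64.4% of all genes. Gsta5 was at -4.92 ± 0.35 (edgeR adjusted p = 1.28e-07), Ugt2b35 at -6.81 ± 0.57 (edgeR adjusted p = 1.24e-06), Sult1c2a at -3.93 ± 0.12 (edgeR adjusted p = 5.25e-11) and Gstm5 at 1.84 ± 0.15 (edgeR adjusted p = 1.77e-07). Mgst2, which passed the filter only through the HOMO libraries, was at 4.35 ± 0.60 (edgeR adjusted p = 2.95e-05), or 6.08 without HET replicate 1. Gsta6 was called lower there (-0.96 ± 0.34, edgeR adjusted p = 0.0263) and Gsta3 was not (-0.51 ± 0.27, edgeR adjusted p = 0.114). The Gsta6 call was lost without HET replicate 2 or 5 or HOMO replicate 1, 2 or 4 (values -0.86 to -0.82), and without HOMO replicate 1 Gsta3 and Mgst1 were called lower (-0.78 and -0.41). Gstp1 was not called (0.42 ± 0.33, edgeR adjusted p = 0.28), but without HET replicate 4 it was called higher, at 0.92 (edgeR adjusted p = 0.00203).

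Genes linked to the substrates and products of these enzymes were described from lists, in HOMO against WT. Beside the counts of each list, 37.0% of all genes tested were called higher and 34.7% lower. Of 10 genes of glutathione synthesis and recycling, 2 rose and 7 fell, at a median log2 fold change of -1.64 beside 0.038 over all genes. Oxoprolinase Oplah was at -1.89 ± 0.10 and glutathione reductase Gsr at -1.39 ± 0.090, while Slc7a11, the cystine importer, was at 5.17 ± 0.58 (largest edgeR adjusted p = 3.46e-06). Gclc, the catalytic subunit of the rate-limiting step, named after its values were seen, was at 2902, 287, 5451 and 4179.6 CPM in WT, 1575, 1289, 4912 and 559 CPM in HET and 106, 94.8, 57.3 and 46.3 CPM in HOMO. Its WT libraries spread widely, and it fell, at a log2 ratio of -5.40 ± 0.98 (edgeR adjusted p = 5.64e-04).

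Of 14 tested genes of the mercapturate pathway and conjugate export, 3 rose and 11 fell, at a median of -1.82. The basolateral organic anion transporters Slc22a6 (-4.45 ± 0.17) and Slc22a8 (-3.75 ± 0.19) and the exporter Abcg2 (-2.18 ± 0.12) fell, and the exporter Abcc5 rose (2.10 ± 0.20). Of 10 genes of glucuronate supply and deconjugation, 2 rose and 7 fell, at a median of -1.01, with the inositol oxygenase Miox at -4.93 ± 0.15, the nucleotide sugar transporter Slc35d1 at -2.26 ± 0.076, the glucuronate reductase Akr1a1 at -1.996 ± 0.10 and, against the median, Slc35d2 at 1.15 ± 0.18. The other rise was the glucuronidase Gusb, which removes glucuronic acid, at 0.93 ± 0.066, and the list also holds Ugt8, a galactosyltransferase, at -0.74 ± 0.20, both named after their values were seen. Of 12 tested genes of PAPS and sulfate supply and desulfation, 1 rose and 10 fell, at a median of -0.77. Sulfite oxidase Suox was at -2.61 ± 0.10, the sulfate transporter Slc26a1 at -3.31 ± 0.18 and the phosphatase Bpnt1 at -1.63 ± 0.10, and the sulfate transporter Slc26a2 rose (1.43 ± 0.16). The list also holds the sulfatases Sts, Arsa and Arsb, which remove sulfate, at -0.71 ± 0.23, -0.59 ± 0.085 and -0.63 ± 0.092, also named after their values were seen. With library size alone the counts were 3 rises and 8 falls, 2 and 6, and 2 and 6 for these lists in turn, at medians of -1.20, -0.40 and -0.16, and for glutathione synthesis 2 and 6 at -1.02. Over the 17 genes named from the 3 lists the largest edgeR adjusted p was 0.0149.

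Of 18 tested regulators of these enzymes, 3 rose and 8 fell, at a median of -0.22. Over all genes tested 37.0% were called higher and 34.7% lower. With library size alone 9 regulators rose and 7 fell, at a median of 0.40. The tubular transcription factors Hnf4a (-3.18 ± 0.14) and Hnf4g (-2.87 ± 0.17) fell and Cebpb (1.59 ± 0.22) rose (largest edgeR adjusted p = 2.87e-05). Nfe2l2, which encodes NRF2, the factor that binds antioxidant elements, was named after its values were seen and was not called, at -0.10 ± 0.10 (edgeR adjusted p = 0.392). Of 10 tested other targets of NRF2, 5 rose and 5 fell, at a median of 0.058, but with library size alone 5 rose and 3 fell, at a median of 0.67. Named from them are the peroxidase Gpx2 at 3.60 ± 0.15, Abcc1 at 0.86 ± 0.082, the malic enzyme Me1 at -1.997 ± 0.20 and, against the median, Osgin1 at -3.89 ± 0.67 (largest edgeR adjusted p = 3.78e-04). In HET against WT 0 genes of these lists were called.

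In the authors' deposited table for HOMO against WT, 30 members are listed, 3 called higher and 20 called lower there. Of these, 22 were called both there and here, and all 22 had the same direction. The authors' deposited table for HET against WT lists 29 members with 0 called, and that for HOMO against HET lists 30 with 3 higher and 21 lower.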

How the data were processed

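RNA of frozen kidney cortex was extracted with Trizol and made into stranded mRNA libraries, per the labels' protocols. The gene table the authors deposited holds raw read counts and RPKM values for 32623 genes, and their comparison tables hold log2 fold changes and p-values with false discovery rates. The submitters' processing notes name Rnor_6.0 and edgeR 3.8.6. Which aligner, counter and gene annotation were used, and whether strand was counted, is not given in the sources used here. RPKM values as the authors deposited them equal counts per listed length and total, with a largest deviation of 0.26% among member values of at least 50 counts, and were used only for that check.

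A low-count filter (filterByExpr, 10 counts per library and 15 in total) left 15856 of 22687 genes with a count. A single edgeR 4.0.16 model (R 4.3.3), with TMM factors and robust quasi-likelihood dispersion, was fitted to all 12 libraries, and p-values were adjusted by Benjamini-Hochberg over all genes tested at a level of 0.05. It was tested on simulated counts with few changed genes and a fixed dispersion. That setting does not cover a change as broad as HOMO against WT. Standard errors are the log2 fold change over the root of F. Levels are mean ± SD over 4 libraries, and levels per kilobase divide TMM-scaled CPM by the listed gene length. Total counts ran from 18995464 to 37023629, and intervals and floors of 3 counts cover counting error only.

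The members and lists were chosen with earlier results of these data known. Values of every library are given, in each family, for the 4 tested members with the highest level per kilobase, the 4 called members with the largest change and an average log2 CPM of at least 0, and up to 3 called members against the family's median, and for each list 3 members by p and 1 against its median. A gene and a motif that would have been named are not reported here. The groups of replicates were taken from the sample titles. Alternatives were RLE factors, library size alone, DESeq2 1.42.0, no filter, a floor of 1 CPM in 4 libraries, voom in limma 3.58.1, the 8 libraries compared alone, the replicate number as a block, a level of 0.01, glmTreat against a fold of 1.5 and leaving out each library. Motifs, and the alternatives for lists and class shares, were chosen after the data were seen. Promoter sequences are from RefSeq (GRCr8).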

Additional observations from a re-analysis of the deposited data

Results flagged for a closer look

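Of 96 member and group combinations checked, 11 held 1 library that stood apart from the other 3 by Dixon's gap-to-range criterion for 4 samples. Chance gives about 1 in 20. HET replicate 4 was the high library in 5 of the 11: Gstp1 at 355 CPM (others 125 to 146), Gstt1 at 71.2 CPM (63.2 to 64.5), Sult1c2 at 19.7 CPM (11 to 11.3), Sult4a1 at 23.7 CPM (5.82 to 6.3) and Ugt2a3 at 42.2 CPM (21.3 to 23). HOMO replicate 1 was the high library in 3: Gsta3 at 16 CPM (7.93 to 9.2), Gstz1 at 48.5 CPM (21.5 to 22.5) and Mgst1 at 227 CPM (109 to 120). The library labelled HOMO replicate 3 held 50.1 CPM of Gsta6 (18.5 to 18.8 in the others). Gstm1 reached 67.4 CPM in WT replicate 2 (40.5 to 41.9), and Sult1a1 reached 38.9 CPM in WT replicate 3 (22.9 to 23.6).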

How the results depend on the processing

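In HOMO against WT the members called higher and lower numbered 3 and 22 with RLE factors, DESeq2 and the 8 libraries alone, 3 and 23 with limma voom, 3 and 21 without a filter, 3 and 19 with at least 1 CPM in 4 libraries (Sult1c3 and Ugt2b were then not tested), and 3 and 20 at a level of 0.01 and with glmTreat. Library size alone gave 8 higher and 20 lower, in HOMO against HET also 8 and 20, where the all-gene median was 0.67 and 80.5% of called genes were higher in place of 51.2%. Leaving out 1 library gave 3 higher and 20 to 23 lower in HOMO against WT, 3 to 4 higher and 21 to 23 lower in HOMO against HET, and 0 in HET against WT. With library size alone Gstm4 and Mgst1 turned to 0.39 and 0.54 against WT, and to 0.30 and 0.54 against HET. The median of the 3 Mgst genes turned against WT to 0.54 with library size alone and to 0.029, 0.037 and 0.0044 without HOMO replicate 2, 3 or 4, and was -0.39 without HOMO replicate 1. Against HET it turned to 0.54 with library size alone and to 0.012 and 0.020 without HOMO replicate 2 or 3, and was -0.41 without HOMO replicate 1. The cause was not tested. With the replicate number as a block, 3 were higher and 21 lower (Gstm4 at an edgeR adjusted p of 0.0829), but the deviations of same-numbered libraries from their group means correlated at -0.133 to 0.022 for HOMO and WT, -0.028, 0.185 and 0.140 for HET and WT, and 0.440, -0.024 and -0.096 for HOMO and HET, not over 0.1 for every pair in any comparison, so the numbers were not taken to pair the samples. Without HOMO replicate 3 the HOMO shares of the alpha, mu and pi classes were 8.28%, 19.5% and 39.9%. Summing repeated symbols or Ugt1a rows was not run, since 0 symbols were repeated and 1 Ugt1a row was present. Low counts limit Mgst2, Sult1c3, Ugt2b and the 8 members not tested.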
